A study of Mus musculus with 2 samples.

Results

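The insulin-like growth factor (IGF) genes described here are the hormone Igf1, its receptor Igf1r, the binding proteins Igfbp2, Igfbp3, Igfbp4, Igfbp5, Igfbp6 and Igfbp7, and the receptor substrates Irs1 and Irs2. They were found by the RefSeq accession given for each spot that was not a control. All 10 genes were on the array, with 15 probes and 19 spots, out of 20654 genes and 27224 probes that could be named in this way. The data are 1 array from Dnmt3a knockout cells and 1 array from wild type cells. Both came from female C57BL/6 mice, and both were bone marrow monocyte and macrophage precursors, selected by adherence in M-CSF and then grown with RANKL and M-CSF into osteoclasts, the cells that resorb bone. Dnmt3a encodes an enzyme that adds methyl groups to cytosines in CpG dinucleotides. The knockout allele, the cells in which it was deleted, the age of the mice and the number of mice behind each culture are not given in the sources used here.

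IGF1 is a secreted growth factor that is stored in bone matrix, is made by macrophages and by cells of the osteoblast lineage, and acts on both bone-forming and bone-resorbing cells. It binds a tyrosine kinase receptor on the cell surface, which phosphorylates the insulin receptor substrates IRS1 and IRS2 and through them activates PI3K and Akt. Binding proteins hold IGF outside the cell and set how much of it reaches the receptor, and proteases such as PAPP-A cut some of them and free the hormone.

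With 1 array per genotype, no test across samples could be made and no p-value is given. Every difference below is on the log2 scale, knockout minus wild type, after each array was divided by its own 75th percentile of signal. The error beside it is the scanner software's own error of both spots, which covers the reading of a spot and not the spread between mice or cultures. Dnmt3a itself gave a signal of 1822 on the knockout array and 7042 on the wild type array, a log2 difference of -1.92 (error 0.20). Among 13479 genes well above background on both arrays, 0.824% were higher in the knockout by 2-fold or more and 0.727% were lower by as much. Their median difference was 0.01, with an SD of 0.37 over genes. The 8 spike-in probes differed by 0.30 to 0.72, median 0.53, so that scaling to them lowers every difference by 0.53. Among the all-gene calls the split of 111 higher and 98 lower became 86 and 130 after quantile normalization and 18 and 1009 with spike-in scaling.

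The IGF genes did not move as a block. Igfbp4 was higher on the knockout array by 1.75-fold and Igf1 by 1.38-fold, although Igf1 was slightly lower there with spike-in scaling. Igfbp5 was lower by 2.20-fold, Irs1 by 2.10-fold, Igfbp7 by 1.74-fold and Igf1r by 1.33-fold, and all of them stayed below 0 with spike-in scaling. Igfbp2, Igfbp6 and Irs2 differed by less than the scanner error, and Igfbp3 was not well above background on either array. Of the 9 measured IGF genes 4 lay above 0 and 5 below it, beside 51.9% and 48.1% of all measured genes. A 2-fold difference upward was reached by 0 of the 9 and downward by 2, beside 0.824% and 0.727%. The downward count was 0 with normexp background correction and 1 with all probes of a gene averaged. With spike-in scaling it was 3, beside 1009 of the 13479 measured genes. Past 2 scanner errors, 2 of the 9 lay above 0 and 3 below it, beside 10.3% and 8.61%. With 9 genes chosen when earlier results of these data were known, the counts describe these genes and these arrays only.

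**Figure D1:**
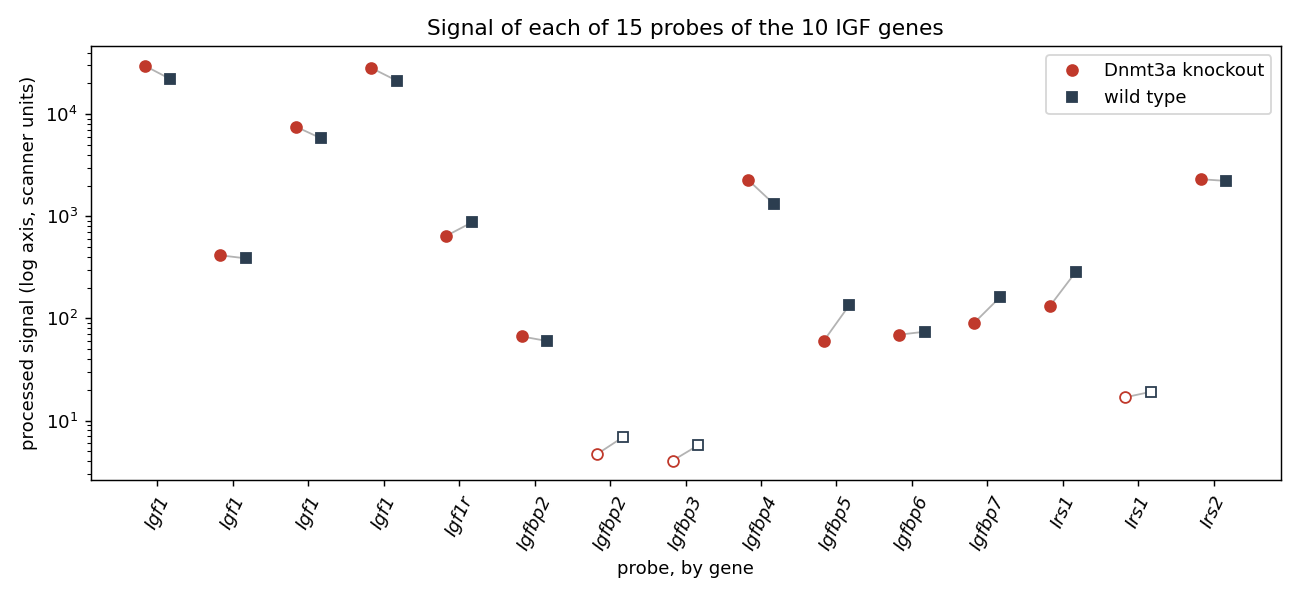
Processed signal of each of the 15 probes on a log axis, with the Dnmt3a knockout array as red circles and the wild type array as dark squares. Open symbols are probes not well above background. Signals of different probes are not comparable, so only the slope of each line is to be read. The steepest lines among the filled symbols belong to Igfbp5, Irs1, Igfbp4 and Igfbp7.

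The start regions of the 4 genes on which these results turn are given here because Dnmt3a acts on CpG dinucleotides, which are in capitals. Each is 300 bases long, 250 before and 50 after the transcription start, on the gene's strand, from RefSeq on GRCm38.p6, a later build than the mm9 of the array's design. All 10 genes had an entry in the promoter table, Igfbp2 with 2 starts. Methylation was not measured on these arrays. In the order shown they are at chr11:99040994-99041293 (plus strand), chr1:72874816-72875115 (minus strand), chr1:82291390-82291689 (minus strand) and chr10:87860861-87861160 (plus strand).
Igfbp4: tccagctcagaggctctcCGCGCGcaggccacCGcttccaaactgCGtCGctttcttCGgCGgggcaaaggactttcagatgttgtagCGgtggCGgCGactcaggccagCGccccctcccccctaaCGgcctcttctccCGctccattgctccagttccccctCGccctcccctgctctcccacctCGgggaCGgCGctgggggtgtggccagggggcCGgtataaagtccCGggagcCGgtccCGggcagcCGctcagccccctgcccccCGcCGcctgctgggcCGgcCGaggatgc
Igfbp5: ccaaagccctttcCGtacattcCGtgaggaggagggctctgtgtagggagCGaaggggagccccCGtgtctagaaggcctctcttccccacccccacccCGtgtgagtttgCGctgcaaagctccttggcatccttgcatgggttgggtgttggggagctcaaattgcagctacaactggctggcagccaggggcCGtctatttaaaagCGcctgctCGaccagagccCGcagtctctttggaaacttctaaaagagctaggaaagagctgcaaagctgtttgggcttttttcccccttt
Irs1: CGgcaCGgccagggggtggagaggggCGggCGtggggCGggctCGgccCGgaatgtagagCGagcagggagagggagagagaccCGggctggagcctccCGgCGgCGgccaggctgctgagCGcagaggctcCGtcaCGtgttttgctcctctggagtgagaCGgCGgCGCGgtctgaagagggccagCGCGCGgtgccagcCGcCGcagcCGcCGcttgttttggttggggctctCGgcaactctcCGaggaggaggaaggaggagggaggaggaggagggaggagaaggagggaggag
Igf1: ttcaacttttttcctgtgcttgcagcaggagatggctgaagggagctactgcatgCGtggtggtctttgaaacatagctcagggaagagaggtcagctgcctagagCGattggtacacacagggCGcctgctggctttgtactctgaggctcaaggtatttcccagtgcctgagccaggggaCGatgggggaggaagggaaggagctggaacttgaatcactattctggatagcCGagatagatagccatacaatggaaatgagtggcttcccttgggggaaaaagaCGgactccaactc

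The Igfbp4 region holds 27 CpG, that of Igfbp5 10, that of Irs1 28 and that of Igf1 6. Across all 32851 start regions in the table the median was 7, with quartiles of 3 and 20. The richest of the 11 regions was that of Igf1r with 48, followed by Irs2 with 41, Igfbp3 with 37 and Igfbp7 with 33. Both regions of Igfbp2 (18 and 14) and that of Igfbp6 (8) lay between these and Igf1, the poorest. The 2 genes at least 2-fold lower in the knockout thus had 10 and 28 CpG, and the gene with the greatest positive difference had 27. The letters TATAAA, searched on both strands, occurred in the regions of Igfbp4 and Igfbp6 and in 13.6% of all regions.

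Igf1, the hormone itself, was measured by 4 probes of 2 spots each. The probe that stands for the gene, the brightest, gave 29616 and 30031 on the knockout array and 22273 and 21839 on the wild type array. Both knockout spots were above both wild type spots, and the difference was 0.47 (error 0.20). A further probe gave 28038 and 28842 in knockout cells, against 21490 and 21123 in wild type cells, a difference of 0.45. The third gave 7612 and 7517 on the knockout array and 5893 and 5698 on the wild type array, a difference of 0.41. These 3 probes thus lay close together, between 0.41 and 0.47. The fourth was much dimmer, with 416.6 and 414.2 in the knockout and 390.8 and 384.2 in the wild type, and its difference was only 0.13. All 4 carry the same accession, and why the fourth differs was not tested. Over the 8 spots the differences ran from 0.12 to 0.49, and the 2 spots of a probe lay at most 0.07 apart, although some of these pairs sit far from each other on the slide. Across the array, 259 probes had 8 or more usable spots, and their differences had a median SD of 0.07.

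**Figure D2:**
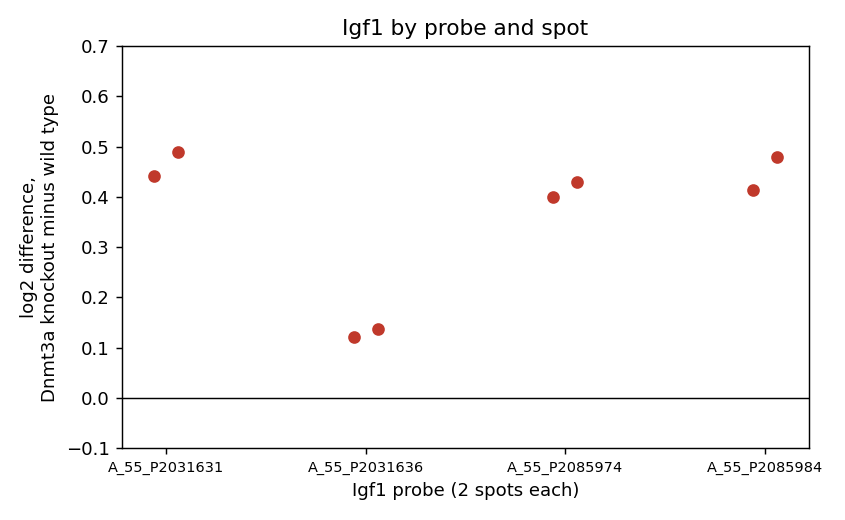
Log2 difference (Dnmt3a knockout minus wild type) of the 8 Igf1 spots, 2 for each of 4 probes. All 8 are above 0 after 75th percentile scaling; 6 lie between 0.40 and 0.49 and the 2 of the dim probe at 0.12 and 0.14. Spike-in scaling would lower every point by 0.53, which puts all of them below 0.

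Of the measured genes, 1263 had a greater positive difference than Igf1, which placed it at percentile 90.6 of all differences. Its sign rests on the scaling. It was positive in 11 of 12 alternatives, between 0.36 and 0.47, and was -0.06 when the arrays were scaled to the spike-in probes. Some of the 11 left its brightest probe untouched and so gave the same 0.47. These were both changes of the filter on level and leaving out the first or second block of rows.

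Igf1r, the receptor, had 1 probe. Its signal was 644.5 on the knockout array and 873.3 on the wild type array, a difference of -0.41 (error 0.20), which is just short of 2 scanner errors. The hormone and its receptor therefore differed in opposite directions after 75th percentile scaling, by 0.47 and -0.41, and both were below 0 (-0.06 and -0.94) with spike-in scaling.

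Among the binding proteins, Igfbp4, which holds IGF1 and in bone is cut by PAPP-A, was the highest. Its only probe gave 2269 in knockout cells and 1323 in wild type cells, a difference of 0.81 (error 0.20). Only 293 of the 13479 measured genes had a greater positive difference. It was the one IGF gene that stayed above 0 with spike-in scaling, at 0.28, and it ranged from 0.75 to 0.82 in the other alternatives.

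Igfbp5, a binding protein that attaches to bone matrix and is made by osteoblasts and stromal cells, was the lowest. It gave 59.96 on the knockout array and 134.5 on the wild type array, a difference of -1.14 (error 0.25), and 59 measured genes had a more negative one. Both signals were low but well above background, whose lowest accepted probe had 17.7 on the knockout array and 25.8 on the wild type array. After normexp background correction with an offset of 50, which draws dim signals together, the difference was -0.55 and no longer 2-fold.

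Igfbp7, a secreted protein of the same superfamily that binds IGF weakly and is found in vessel walls and stroma, came next. Its signal was 91.1 in knockout cells and 161.9 in wild type cells, a difference of -0.80 (error 0.22). With normexp background correction it was -0.47. The gene has 1 probe, and 229 measured genes had a more negative difference.

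The remaining binding proteins showed little. Igfbp2, the major IGF carrier of early life, had 66.7 on the knockout array and 60.02 on the wild type array (difference 0.18, error 0.26, and -0.35 with spike-in scaling). Its other probe was not well above background on either array. Igfbp6, which prefers IGF2, had 69.3 in knockout cells and 74.1 in wild type cells (difference -0.07, error 0.25). Igfbp3, the main carrier of IGF1 in blood, had 4.06 on the knockout array and 5.74 on the wild type array. These are close to the medians of the negative control spots, 4.24 on the knockout and 6.06 on the wild type array, so no fold is given. Igfbp2 and Igfbp5 are neighbours on chromosome 1 in the RefSeq table, with no protein-coding gene between them. Their differences, 0.18 and -1.14, were 1 above and 1 below 0, and both were negative with spike-in scaling.

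**Figure D3:**
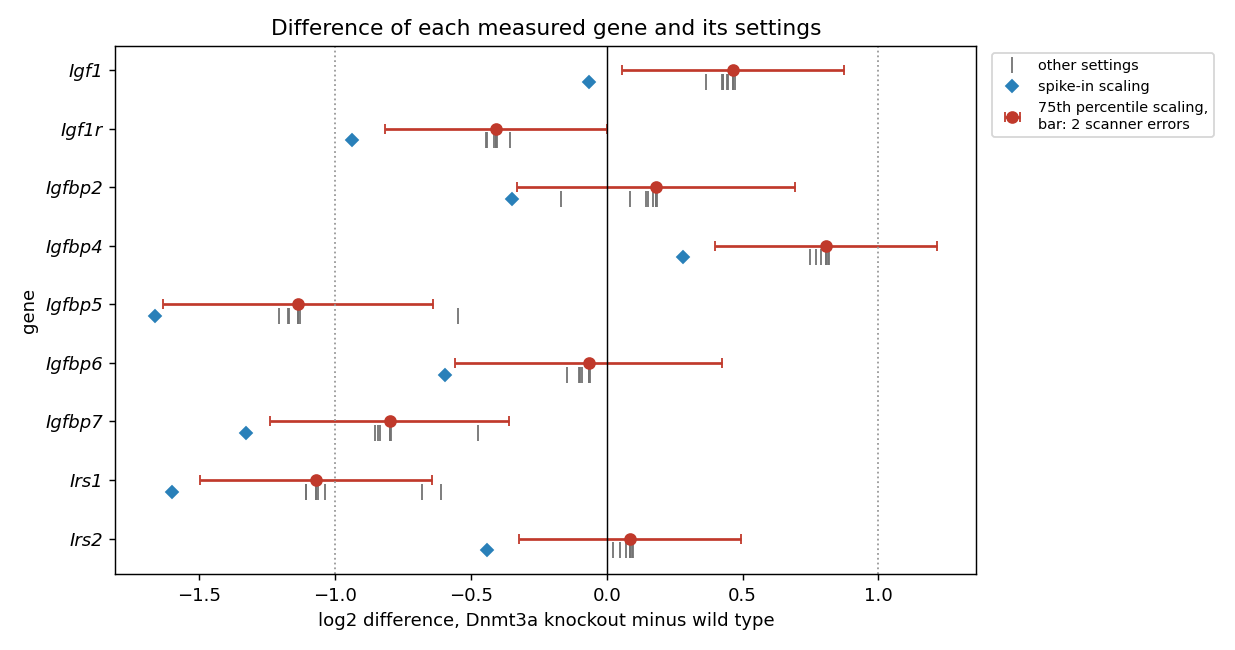
Log2 difference (Dnmt3a knockout minus wild type) of the 9 measured genes, with bars of 2 scanner errors. Blue diamonds are spike-in scaling and grey ticks the other alternatives; dotted lines mark 2-fold. Igf1, Igfbp2 and Irs2 change sign with spike-in scaling, Igfbp2 also with its probes averaged (-0.17), Igfbp4 stays above 0, and Igf1r, Igfbp5, Igfbp6, Igfbp7 and Irs1 stay below 0 in every setting drawn.

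The 2 receptor substrates differed unequally. Irs1 had 132.3 on the knockout array and 283.5 on the wild type array, a difference of -1.07 (error 0.21), and 76 measured genes had a more negative one. A dimmer probe of Irs1, at 16.9 in knockout cells and 19.1 in wild type cells, was not well above background on either array. Averaging both probes gave -0.61, and normexp background correction gave -0.68, both short of 2-fold. Irs2, which carries the signal of the IGF and insulin receptors in many of the same cells, had 2308 in knockout cells and 2219 in wild type cells. Its difference was 0.09 (error 0.20), or -0.44 with spike-in scaling.

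Igfbp5 and Irs1, the genes past 2-fold, were each read from 1 spot, and both spots lie in the first of 3 equal blocks of array rows. In that block 2.30% of genes with 1 spot were past 2-fold, against 1.20% and 1.26% in the other blocks. The spots within 10 rows and 10 columns of the Igfbp5 spot had a median difference of 0.04 (134 spots), and those around the Irs1 spot -0.03 (161 spots). Of these spots 2.24% around Igfbp5 and 2.48% around Irs1 were 2-fold apart, beside 1.81% across the array. Subtracting these medians left Igfbp5 at -1.17 and Irs1 at -1.04. This subtraction was chosen after the data were seen.

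The other 53 genes listed for the pathway are described by their counts. Of these, 44 were measured on both arrays, 8 were not well above background on either and 1 was above it on the knockout array only. The median difference was -0.01, beside 0.01 for all measured genes, with 21 above 0 and 23 below. None was 2-fold apart, while 1.55% of all measured genes were. Past 2 scanner errors, 1 of the 44 lay above 0 and 8 below it (all measured genes 10.3% and 8.61%). With spike-in scaling the median was -0.54, beside -0.52 for all measured genes. Under it 8 of the 44 were 2-fold lower, beside 1009 of all 13479 measured genes. The signs of the differences between 0 and 0.53 given below turn negative with that scaling.

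**Figure D4:**
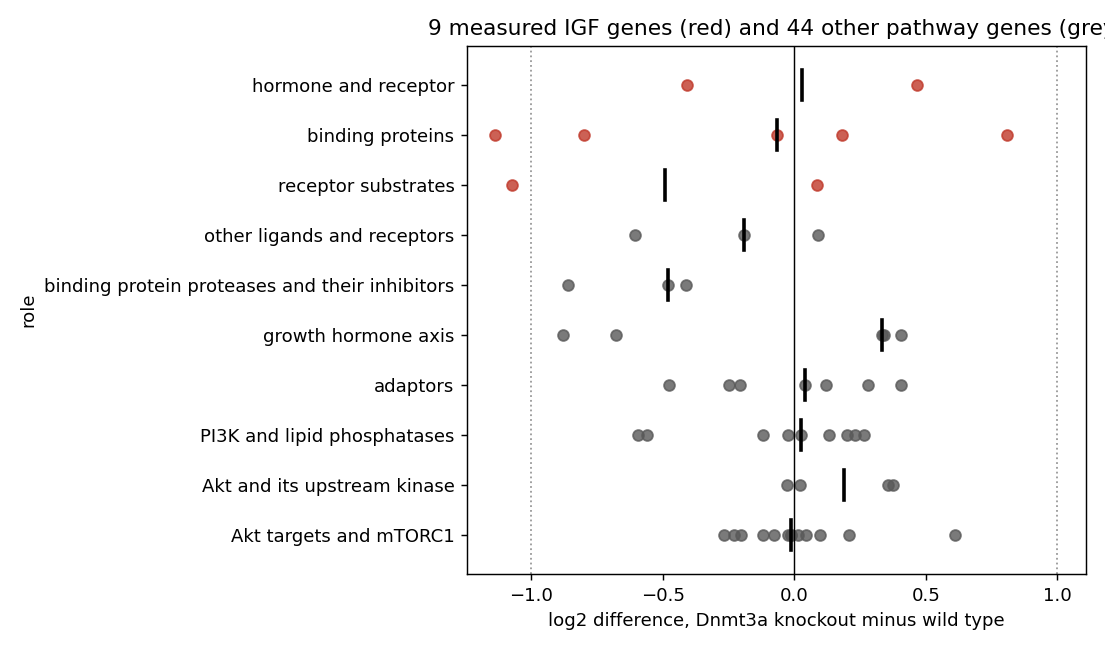
Log2 difference (Dnmt3a knockout minus wild type) by role, with the 9 measured IGF genes in red and 44 other pathway genes in grey. Each point is a gene, black bars are medians and dotted lines mark 2-fold. Only Igfbp5 and Irs1 lie beyond a dotted line; spike-in scaling moves every point 0.53 to the left.

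Of the other ligands, Igf2, an imprinted growth factor of the embryo, was not well above background on either array. Ins2, an insulin gene, had 320.7 in knockout cells and 497.6 in wild type cells (-0.60). Insr, the insulin receptor, differed by 0.09 in its brightest probe and by 0.22 and 0.74 in the others, so its probes disagree in size. Igf2r, which takes IGF2 to the lysosome, differed by -0.19, the median of the 3 measured ligands and receptors. Igfbp1, Igfals and Igfbpl1, the other binding proteins listed, were not well above background.

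The lowest genes of the pathway list were upstream of the receptor. Ghr, the growth hormone receptor, through which growth hormone induces Igf1 in liver, had 165.9 on the knockout array and 311.7 on the wild type array, a difference of -0.88 (error 0.21, other probe -0.54). Pappa, which encodes PAPP-A, the protease of Igfbp4 and Igfbp5, had 99.5 in knockout cells and 184.3 in wild type cells, a difference of -0.86 (error 0.22). Igfbp4 and the protease that cuts it thus differed by 0.81 and -0.86. All 3 measured genes among the proteases and their inhibitors were below 0, the others being Stc1 (-0.48, error 0.45, the median) and Htra1 (-0.41).

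Within the growth hormone axis the 5 genes split, with a median of 0.34 (-0.19 with spike-in scaling). Socs2, a feedback inhibitor induced by growth hormone, was at -0.68, with further probes at -0.84 and -0.74. Jak2 (0.34), Stat5a (0.34) and Stat5b (0.40), the kinase and the transcription factors downstream of the growth hormone receptor, were positive, each below 0 with spike-in scaling.

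Downstream of the receptor the differences were small. Akt1, the kinase, was at 0.02 and Foxo1, a transcription factor that Akt holds out of the nucleus, at -0.01. The highest gene of the list, Foxo3 (0.61, error 0.28), was dim, with 78.0 on the knockout array and 52.1 on the wild type array. It was followed by Gab1, an adaptor, at 0.41 (error 0.21). Foxo4 was well above background on the knockout array only, with 37.6 there and 23.4 on the wild type array. Its difference of 0.72 (error 0.41) lay within 2 scanner errors of 0. The knockout signal was 1.49-fold above the lowest accepted wild type signal, or 0.57 on the log2 scale. Spike-in scaling lowers this by 0.53. The 4 genes of Akt and its upstream kinase had a median of 0.19 (-0.34 with spike-in scaling). The 13 measured Akt targets and mTORC1 genes had a median of -0.01, the 9 genes of PI3K and lipid phosphatases one of 0.03, and the 7 adaptors one of 0.04.

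Markers of several cell types also differed between the arrays. Those of stromal cells and osteoblasts, which make several of the binding proteins, had a median of -0.70 over 13 measured genes, 12 of them below 0, from Cxcl12 (-0.98) to Dcn (0.03). Their summed scaled signal was 170.1 on the knockout array and 255.7 on the wild type array, in units of each array's 75th percentile. The sum is weighted to its brightest probe, that of Sparc. Lum and Runx2, which also define these cells, were not well above background on either array. Of the 9 measured IGF genes, 3 lay below this median (Igfbp5, Igfbp7 and Irs1) and 6 above it. Of the 44 other pathway genes 2 lay below it (Pappa and Ghr) and 42 above. The share of all measured genes below it was not counted, so these counts have no background share beside them. The stromal list was not alone in this, as osteoclast markers had a median of -0.58. Whether stromal cells and osteoblasts account for these differences was not tested. In a mixed culture fewer cells of a type and less RNA per cell cannot be told apart.

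Of 10 macrophage markers 9 were above 0, with a median of 0.70, from Itgam (-0.27) to Marco (1.47). The value of Itgam is that of its brightest probe, and its 2 other probes were above 0, at 0.22 and 0.32. The macrophage markers had a summed scaled signal of 878.8 in knockout cells and 728.7 in wild type cells. Igf1, a product of macrophages among other cells, was at 0.47 beside them. With spike-in scaling the macrophage median was 0.17 and Igf1 -0.06. Osteoclast markers, which check the labelled cell type, were all 11 well above background on both arrays. Their median was -0.58, from Tnfrsf11a (-1.20) to Acp5 (-0.00), and they summed to 1729 on the knockout array and 1989 on the wild type array. Neutrophil markers had a median of 0.49 over 9 genes (Elane 0.15 to Mmp8 1.08; -0.04 with spike-in scaling) and summed to 347.8 on the knockout array and 259.7 on the wild type array. Of 6 endothelial markers 3 were measured, between Plvap (-0.63) and Pecam1 (0.15). Another 2, Cdh5 and Tie1, were well above background on the knockout array only. Their knockout signals were 1.46-fold and 1.42-fold above the lowest accepted wild type signal, or 0.55 and 0.50 on the log2 scale. Spike-in scaling lowers both by 0.53, which puts Tie1 below 0. Their differences, 1.03 (error 0.60) and 2.82 (error 1.47), lay within 2 scanner errors of 0. The lowest accepted signal was itself lower on the knockout array, 17.7 against 25.8. The 6 markers had sums of 27.3 in knockout cells and 26.1 in wild type cells. Each of these sums is weighted to its brightest probes, and signals of different probes are not comparable. Those probes are of Kdr for endothelial cells, Csf1r for macrophages, Acp5 and Ctsk for osteoclasts, and S100a9 for neutrophils. The part of these cell types in the IGF differences was not tested.

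**Figure D5:**
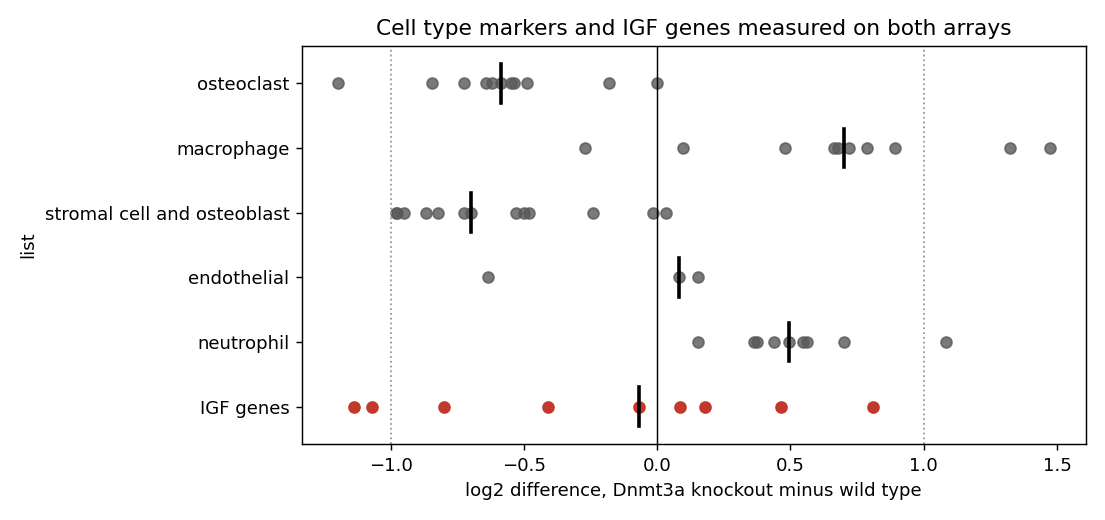
Log2 difference (Dnmt3a knockout minus wild type) of cell type markers measured on both arrays, with the 9 measured IGF genes in red below them. Each point is a gene, black bars are medians and dotted lines mark 2-fold. Stromal and osteoclast markers lie mostly below 0, macrophage and neutrophil markers mostly above it; with spike-in scaling the neutrophil median is -0.04.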

How the data were processed

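RNA of 1 Dnmt3a knockout and 1 wild type osteoclast culture was hybridised to 1-colour (Cy3) Agilent mouse arrays, which the labels assign by genotype. The deposited files give an intensity per spot, background subtracted and spatially detrended within the array, made by the authors with Agilent Feature Extraction 10.10.1.1 per the file headers (9.1 per the submitters' processing notes), probes on mm9, with no scaling between arrays. The deposited 0 or 1 marks of spots are that software's. The authors' value table was the same intensity times 1 factor per array (1.54 knockout, 1.55 wild type; column medians 66.5 knockout, 59.6 wild type), linear, uncentred and no ratio; how the factor was chosen is unknown. Both files give 1 slide and 1 scan.

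Log2 signals were scaled to each array's 75th percentile over 59305 spots that were not controls. Uneven or outlying spots were left out (172 knockout, 157 wild type), no spot was saturated, spots of a probe were averaged, and the brightest probe stood for a gene. A gene was measured when well above background on both arrays. Otherwise a fold is a bound against the lowest accepted signal of the other array, without scanner error. Accessions were named through RefSeq (GRCm38.p6) for 20654 genes. Knockout and wild type arrays had 59.7% and 52.7% of spots well above background; the number of arrays limits precision. All 10 IGF genes are named with every probe; of the pathway list the 2 highest and 2 lowest, genes with a bound and a preset few; other genes given with a role were added after their values were seen. The value of 1 gene that the rule names is not reported here. The members and lists were chosen with earlier results of these data known. The code for the calls was run on simulated data. Whether the calls on these arrays would recur in other mice or cultures was not tested. Alternatives were 11 settings and a local median added later. Median signal stood in for mean signal in normexp, since the files used hold no mean signal. Python 3.11.15, R 4.3.3 and limma 3.58.1 were used.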

Additional observations from a re-analysis of the deposited data

How the results depend on the processing

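Of 11 planned settings, spike-in scaling moved most values. Under it Igf1 reversed to -0.0639; the median of the IGF genes was -0.60 (-0.07 with 75th percentile scaling) and that of the pathway list -0.54, with 8 of its genes 2-fold apart; 1 IGF gene lay above 0 and 8 below (4 and 5 otherwise), and 18 genes overall were 2-fold higher and 1009 lower (111 and 98 otherwise). Genes 2-fold higher and lower numbered 42 and 26 with normexp, 1184 and 466 with no filter on dim probes, 27 and 7 at or above the median level, and 65 and 48 without the first block of rows. IGF genes 2-fold lower numbered 1 with all probes averaged and 0 with normexp, at or above the median level (3 genes left, 0 below 0, median 0.47) and without the first block of rows (2 below 0), the last 2 because Igfbp5 and Irs1 are not among the genes left. Without the last block, 2 IGF genes lay above 0 and 3 below. The median of the IGF genes was -0.41 without the last block of rows, 0.13 without the first, -0.24 without the second and with no filter, and -0.17 with all probes averaged. With no filter, 1 pathway gene was 2-fold apart. Igf1r, Igfbp5, Igfbp6, Igfbp7, Irs1 (below 0) and Igfbp4 (above 0) kept their sign in every setting in which they were measured. For these genes, leaving out a block of rows or changing the filter on level could only keep the same value or drop the gene. Averaging probes could change only Irs1 among them, as the others have 1 probe. A setting that could not change a value was no check of its sign. The mean of both Igfbp2 probes was -0.17. No paired analysis was possible because each genotype has 1 array. Probes near background, and the lack of a second array per genotype, limit all values.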
